A study of Rattus norvegicus with 2 samples.

Results

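The genes that make, break, read and place cyclic AMP in the cell were compared between uncultured rat heart and a pool of cultured rat cells. Members were every gene whose symbol in the array's annotation named a phosphodiesterase (Pde, digits and a letter), an adenylyl cyclase (Adcy and digits), a catalytic or regulatory subunit of protein kinase A (Prkac, Prkar) or an A-kinase anchoring protein (Akap and digits). The rule uses names and no measured value, although it was set with earlier results of these data known. This gave 56 of the 15613 named genes, read by 81 probes: 10 cyclases, 23 phosphodiesterases, 6 kinase subunits and 17 anchoring proteins. Of the 23, 7 belong to the class of cyclic GMP-specific enzymes and Pde6 subunits, which the names bring in although they do not break down cyclic AMP. Each of 2 Agilent arrays with 2 colours carried RNA from 1 heart sample, labelled with Cy3, against RNA labelled with Cy5 from a pool called mix1, which joined bone marrow cells and primary ear fibroblasts. Both pool components had been grown with fetal bovine serum, the marrow cells in alpha-DMEM and the fibroblasts in DMEM, whereas the hearts were untreated and were not put in culture. Strain, age and sex are not given in the labels, which also do not say whether the heart samples, numbered 1 and 2, came from separate animals, so the p-values rest on a spread between the 2 samples that may be no more than technical.

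Cyclic AMP is made from ATP by adenylyl cyclases, most of them membrane enzymes that are switched on by the G protein Gs and held back in part by Gi. It activates protein kinase A by binding the regulatory subunits, which then free the catalytic subunits, and phosphodiesterases end the signal by hydrolysis. In the heart muscle cell this chain carries beta-adrenergic stimulation to the calcium channels, the calcium pump regulator and the contractile proteins, and anchoring proteins hold the kinase and the phosphodiesterases next to these targets.

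Ratios are on the log2 scale, heart over mix1, given for array 1 and array 2 or as mean ± SD over n = 2 arrays. The file states neither the direction nor the base of its values. Heart over mix1 is the likely direction, because the series text puts heart in relation to mix1 and because all 9 heart muscle marker genes were positive on both arrays, with a median of 6.27; this sign is therefore no finding. Base 2 was inferred from the range of the values. A ratio compares 1 gene between the 2 RNA sources and gives no level, so values of different genes show unequal change and not which gene was more abundant. In such bulk material, fewer cells of a type and less RNA per cell cannot be told apart, and tissue of origin cannot be told apart from culture. No dye swap was made, so a small difference cannot be told apart from dye bias.

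Cell type markers differed between the channels as well. The 9 fibroblast markers were all lower in heart (median -5.48), as were the 6 markers of dividing cells (median -3.84). All 8 endothelial markers were higher (median 2.65), and 4 of 6 lymphocyte markers were higher and 0 lower. Of 8 macrophage markers 2 were higher and 5 lower, and of 5 smooth muscle markers 3 were lower and 0 higher. Of 5 photoreceptor markers 2 were higher and 1 lower, and of 5 sperm and testis markers 1 was higher and 1 lower. Of the 8 markers of lung and airway epithelium, 7 differed by at least 2-fold between the arrays, with a median of 0.06 on array 1 and 3.74 on array 2. The part that the mix of cell types has in any ratio below was not tested.

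The members, with the 7 genes of the cyclic GMP class counted in, went both ways. In limma's moderated test, with p-values adjusted over all genes by the Benjamini-Hochberg method, 23 of 56 were higher in heart, 16 were lower and 17 did not pass an adjusted p of 0.05. The share that passed in either direction, 69.6%, lay near the 72.9% of all genes, and is not a result about these genes. The shares by direction were 41.1% higher and 28.6% lower, beside 31.4% higher and 41.5% lower among all genes. At a difference of at least 2-fold, 13 members were higher (23.2%, against 16.9% of all genes) and 9 were lower (16.1%, against 19.5%). Their median ratio was 0.039, beside -0.090 over all genes. Counted on each array alone, with no test, 13 members were at least 2-fold higher on array 1 and 13 on array 2, and 11 and 9 were at least 2-fold lower.

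**Figure D1:**
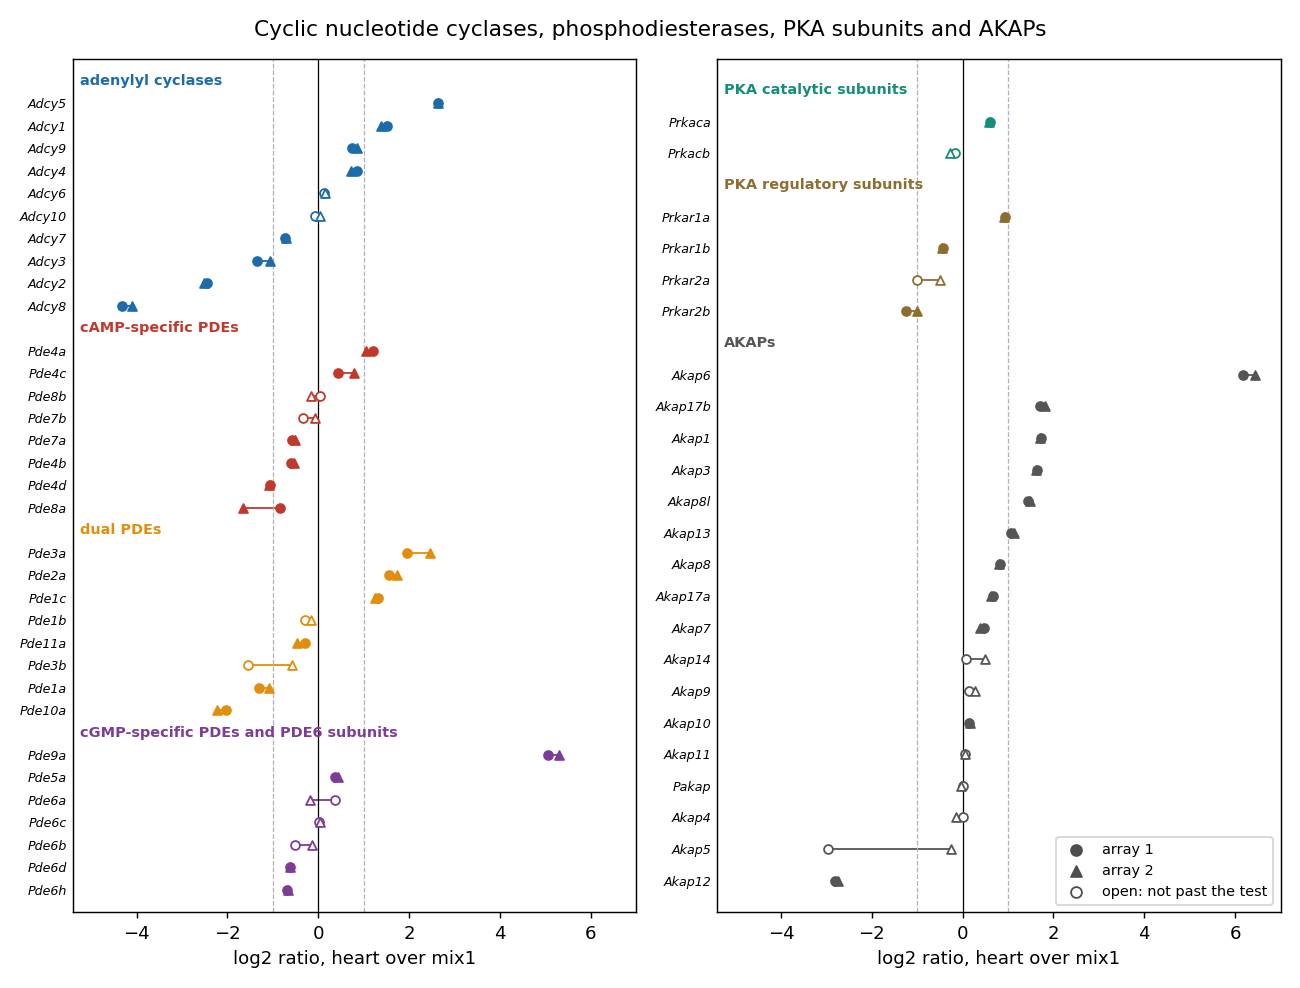
Each row is 1 gene, with its log2 ratio of heart over mix1 on array 1 (circle) and array 2 (triangle), joined by a line. Filled symbols passed limma's test at an adjusted p of 0.05, dashed lines mark 2-fold, and PDE stands for phosphodiesterase. Akap6 and Pde9a lie far to the right of the other members, and Adcy8 farthest to the left.

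Every class but that of the PKA catalytic subunits held members that passed in opposite directions. Among the regulatory subunits the lower members were Prkar2b, whose probes disagreed in sign, and Prkar1b. The call of Prkar1b was lost when each array was centred on its median, where Prkar2a passed as lower instead. The fit to the centred values ignored each gene's own spread. Among the phosphodiesterases of cyclic GMP the lower members, Pde6h and Pde6d, encode an inhibitory subunit and a chaperone, not catalytic enzymes. The anchoring proteins ran from -2.79 to 6.31, the phosphodiesterases of all kinds from -2.13 to 5.19, the cyclases from -4.21 to 2.65 and the 6 kinase subunits from -1.13 to 0.93.

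Among adenylyl cyclases, 4 of 10 were higher in heart and 4 lower. Adcy5, one of the main cyclases of heart muscle and a form inhibited by calcium and by Gi, had ratios of 2.65 and 2.64. The arrays lay close together, and the mean of 2.65 ± 0.006 is a 6.27-fold difference (adjusted p 0.0012). Adcy6, the other cyclase known as a main cardiac form, was at 0.13 and 0.16 and did not pass (adjusted p 0.0528). Its probes disagreed in sign, at -0.58 and 0.88, so its mean stands for neither of them. Adcy1, a form stimulated by calcium and calmodulin and best known from neurons, was at 1.52 and 1.38 (2.73-fold, adjusted p 0.00295).

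Adcy9, a widely expressed form, and Adcy4, a form that G protein beta-gamma subunits stimulate, had smaller positive ratios. Adcy9 was at 0.75 and 0.86 (adjusted p 0.00518), and Adcy4 at 0.85 and 0.72 (adjusted p 0.00642). Both stayed under 2-fold.

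The lower cyclases were Adcy8, Adcy2, Adcy3 and Adcy7. Adcy8, stimulated by calcium and calmodulin like Adcy1, was at -4.31 and -4.10. Its mean of -4.21 ± 0.15 is 18.4-fold toward the cultured cells (adjusted p 0.00139), the lowest ratio of all members and the 210th lowest of 15613 genes. Forms of 1 regulatory type thus differed in direction, with Adcy1 higher in heart and Adcy8 lower. Adcy2, stimulated by beta-gamma subunits, was at -2.45 and -2.51 (5.57-fold lower, adjusted p 0.00124). Adcy3, the cyclase of olfactory signalling that many other cells also express, was at -1.34 and -1.06 (2.29-fold lower, adjusted p 0.00861). Adcy7, known from blood cells, had a mean of -0.71 from probes at -1.53 and 0.10. Adcy10, the soluble cyclase that bicarbonate activates, was at -0.08 and 0.03 and did not pass.

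Of the 8 measured phosphodiesterases that hydrolyse only cyclic AMP, 2 were higher and 4 lower in heart. Pde4a, of the rolipram-sensitive Pde4 family, was at 1.20 and 1.06 (2.19-fold higher, adjusted p 0.00397), and Pde4c of the same family at 0.44 and 0.78 (adjusted p 0.0383). Pde4b was lower at -0.60 and -0.54 (adjusted p 0.00613). Pde4d, whose splice forms sit at the ryanodine receptor and at beta-adrenergic receptors, was at -1.07 and -1.08, with a mean of -1.08 ± 0.011 (2.11-fold lower, adjusted p 0.00209). By gene means the 4 genes of this family were thus split evenly by direction, but the probes of Pde4d differed in sign.

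The mean of Pde4d joins 4 probes that did not read alike. They lay at -2.27, -1.69, -0.51 and 0.17, so the gene's ratio depends on which probe is read. The annotation ties 2 of them to the same RefSeq transcript, at -0.51 and 0.17.

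Of the remaining enzymes of this type, Pde8a, a high-affinity form, was at -0.84 and -1.66. Its mean of -1.25 ± 0.58 only just passed (adjusted p 0.0497), and the call was lost with robust moderation of the variance (0.0553) and where every gene was read by its most repeatable probe, that with the smallest gap between arrays, in place of the mean (0.0551). Pde7a, which rolipram does not inhibit, was at -0.57 and -0.50 (adjusted p 0.00711). Pde7b (-0.34 and -0.06) and Pde8b (0.05 and -0.15) did not pass.

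Phosphodiesterases that take both cyclic nucleotides included the highest ratios of any enzyme that hydrolyses cyclic AMP. Pde3a, the cyclic GMP-inhibited enzyme of the heart and the target of milrinone, was at 1.95 and 2.46, with a mean of 2.21 ± 0.37 (4.61-fold, adjusted p 0.00806). Its paralogue Pde3b, known from fat and liver as the form that insulin activates, was at -1.55 and -0.57 and did not pass (adjusted p 0.0931). The Pde3a values thus lay above 0 and those of Pde3b below 0 on both arrays. Pde2a, which cyclic GMP stimulates, was at 1.56 and 1.74 (3.14-fold, adjusted p 0.003).

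The calcium- and calmodulin-activated Pde1 family was divided by isoform. Pde1c, of high affinity for both nucleotides, was at 1.31 and 1.25 (2.44-fold higher, adjusted p 0.00201), from probes at 0.49 and 2.08. Pde1a, which prefers cyclic GMP, was at -1.31 and -1.08 (2.29-fold lower, adjusted p 0.00649). Pde1b was at -0.28 and -0.15 and did not pass (adjusted p 0.0664). The values of the 3 isoforms lay in separate ranges on these arrays. Pde10a, best known from the striatum, had the lowest ratio of all 23 phosphodiesterases, at -2.03 and -2.22 (4.36-fold lower, adjusted p 0.00228). Pde11a was slightly lower at -0.29 and -0.46 (adjusted p 0.034), from probes at -0.71 and -0.03. The call was lost once each array's median was set to 0, here called centring (-0.31, adjusted p 0.137). That fit ignored each gene's own spread.

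Pde9a stood far from the other enzymes of cyclic GMP. It encodes a cyclic GMP-specific phosphodiesterase of very high affinity, which has been tied in heart muscle to the cyclic GMP that natriuretic peptides raise. Its ratios were 5.07 and 5.30. The mean of 5.19 ± 0.16 is a 36.4-fold difference (adjusted p 0.00127) and the 163rd highest of 15613 genes, read by 1 probe. Pde5a, the target of sildenafil, was at 0.37 and 0.43, with both of its probes above 0 (1.32-fold, adjusted p 0.0109).

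The Pde6 genes, most of which serve phototransduction in rods and cones, had means between -0.67 and 0.096. The catalytic subunit genes Pde6a (0.38 and -0.19), Pde6b (-0.51 and -0.14) and Pde6c (0.01 and 0.03) did not pass. Pde6h, the inhibitory subunit of cones, was lower at -0.68 and -0.67 (adjusted p 0.0037), from probes at -1.10 and -0.24. Pde6d, a lipid-binding chaperone of prenylated proteins that many tissues express and that is no phosphodiesterase itself, was lower at -0.62 and -0.63 (adjusted p 0.00418).

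The kinase subunits had means between -1.13 and 0.93. Prkaca, the main catalytic subunit of heart, was at 0.60 and 0.57 (1.5-fold higher, adjusted p 0.00475). Prkacb, the second catalytic gene, was at -0.17 and -0.28 and did not pass (adjusted p 0.0504), with its 3 probes between -0.30 and -0.14.

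Of the 4 regulatory subunits 1 was higher and 2 were lower. Prkar1a, the widely expressed type I alpha subunit, was at 0.94 and 0.92 (1.9-fold, adjusted p 0.00251), and its probes read alike at 0.86 and 0.99. Prkar1b was lower at -0.43 and -0.45 (adjusted p 0.00713), a call lost after centring (-0.38, adjusted p 0.065). Prkar2a, the type II alpha subunit that many anchoring proteins bind, was at -1.01 and -0.50 and did not pass (adjusted p 0.0544).

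Prkar2b, the type II beta subunit known from fat and brain, was at -1.24 and -1.01 as a mean of probes (2.19-fold lower, adjusted p 0.00701). Its probes pointed in opposite directions, at -2.79 and 0.53, although the annotation ties both to the same RefSeq transcript. By its more repeatable probe alone, Prkar2b was higher in heart at 0.53 (adjusted p 0.00445). Its direction is therefore not settled by these arrays.

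**Figure D2:**
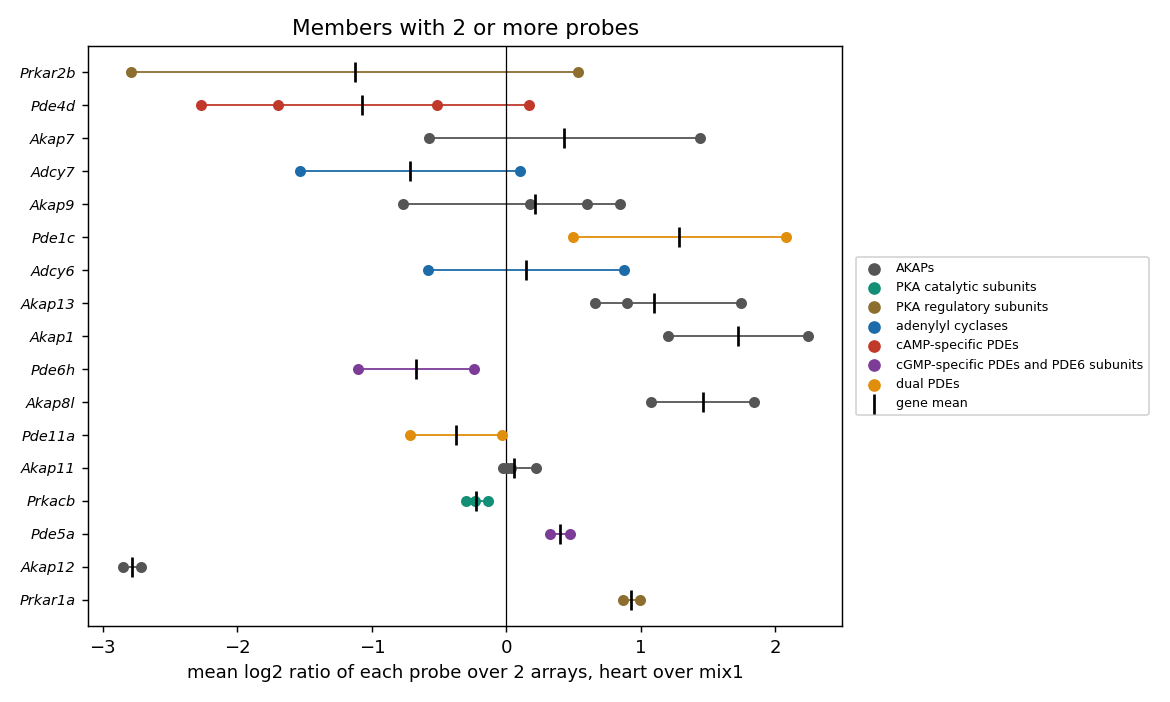
The 17 members read by 2 or more probes are shown, with each probe's mean log2 ratio over 2 arrays as a point and the gene mean as a black tick. Prkar2b and Pde4d have the widest spread between probes, while the probes of Akap12, Prkar1a and Pde5a nearly coincide.

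Probe disagreement of this kind was common. Of the 17 members with several probes, 9 had probes that differed by at least 2-fold and 7 had probes on both sides of 0, although none had probes at least 2-fold higher beside others at least 2-fold lower. The other 39 members rest on a single probe each.

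Of the 17 anchoring proteins, 10 were higher (58.8%, beside 31.4% of all genes), 1 was lower (5.88%, beside 41.5%) and 6 did not pass. Their median was 0.43, beside -0.090 over all genes, and after centring 9 were higher and 2 lower. These 2 were Akap12 and Akap5, the latter in a fit that ignored each gene's own spread. The 10 include Akap10, which only just passed, and Akap7, whose probes differed in sign. Akap6, which encodes the muscle anchoring protein that holds protein kinase A and Pde4d at the nuclear envelope of heart muscle cells and near the ryanodine receptor, was at 6.18 and 6.43. The mean of 6.31 ± 0.18 is a 79.1-fold difference (adjusted p 0.00123). It was the highest ratio of all members and the 58th highest of 15613 genes, within the range of the heart muscle markers (4.18 to 7.23).

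The next anchoring genes toward heart lay well below it. Akap17b was at 1.70 and 1.82 (3.39-fold, adjusted p 0.00201). Akap1, which ties the kinase to the outer mitochondrial membrane, was at 1.73 and 1.71 (3.29-fold, adjusted p 0.0014), and both of its probes were higher, at 1.20 and 2.24. Akap3, best known from the sperm tail, was at 1.63 and 1.61 (3.07-fold, adjusted p 0.00147). The partner of Akap3 in the sperm fibrous sheath, Akap4, had a mean of -0.076 ± 0.10 and did not pass.

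Other anchoring genes higher in heart belong to the nucleus and the cytoskeleton. Akap8l and Akap8, which encode related nuclear proteins, had means of 1.46 ± 0.045 and 0.81 ± 0.015. Akap13, an anchoring protein that also takes part in the control of the cytoskeleton, had a mean of 1.10 ± 0.049, with its 3 probes between 0.66 and 1.75. Akap17a, of the splicing machinery, had a mean of 0.65 ± 0.032. Their adjusted p-values lay between 0.00181 for Akap8l and 0.0045 for Akap17a.

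The remaining anchoring genes that passed as higher, Akap7 and Akap10, had means under 0.5. Akap7, whose products bind phospholamban and the L-type calcium channel, was at 0.47 and 0.39 (1.35-fold, adjusted p 0.0109), from probes at 1.44 and -0.58. Akap9, which encodes yotiao, the partner of the potassium channel Kcnq1, was at 0.15 and 0.27 and did not pass (adjusted p 0.0573). Its 4 probes ran from -0.77 to 0.85, and it passed with the median of the probes (0.38, adjusted p 0.0105). Akap10 was barely higher (0.16 ± 0.018, adjusted p 0.0449), a call lost after centring although the ratio was then 0.22 (adjusted p 0.302). Akap11 (0.06 and 0.05), Akap14 (0.07 and 0.50) and the gene annotated as Akap2 and now named Pakap (0.00 and -0.03) did not pass.

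Akap12 was the only anchoring gene that passed as lower in heart with the values as deposited. After centring Akap5 also passed, in a fit that ignored the wide gap between its arrays. Akap12 encodes gravin, a scaffold at the plasma membrane that binds the beta-2 adrenergic receptor and is known from fibroblasts. Its ratios were -2.82 and -2.75, with a mean of -2.79 ± 0.050 (6.9-fold lower, adjusted p 0.00123), and its probes lay at -2.85 and -2.72.

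Akap5 was the single member whose arrays differed by at least 2-fold. It encodes a membrane scaffold for protein kinase A, calcineurin and protein kinase C. Its ratio was -2.97 on array 1 and -0.25 on array 2, and it did not pass (mean -1.61 ± 1.92, adjusted p 0.242). Array 2 was also the array on which the lung and airway markers were high; their part in the Akap5 difference was not tested. The arrays of 5 other members differed by at least 0.5. The difference, array 2 minus array 1, was 0.98 for Pde3b, -0.81 for Pde8a, -0.58 for Pde6a, 0.52 for Pde3a and 0.51 for Prkar2a. Of 56 members, 40 differed by under 0.2. The median absolute difference between arrays was 0.11 over members and 0.08 over all genes.

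**Figure D3:**
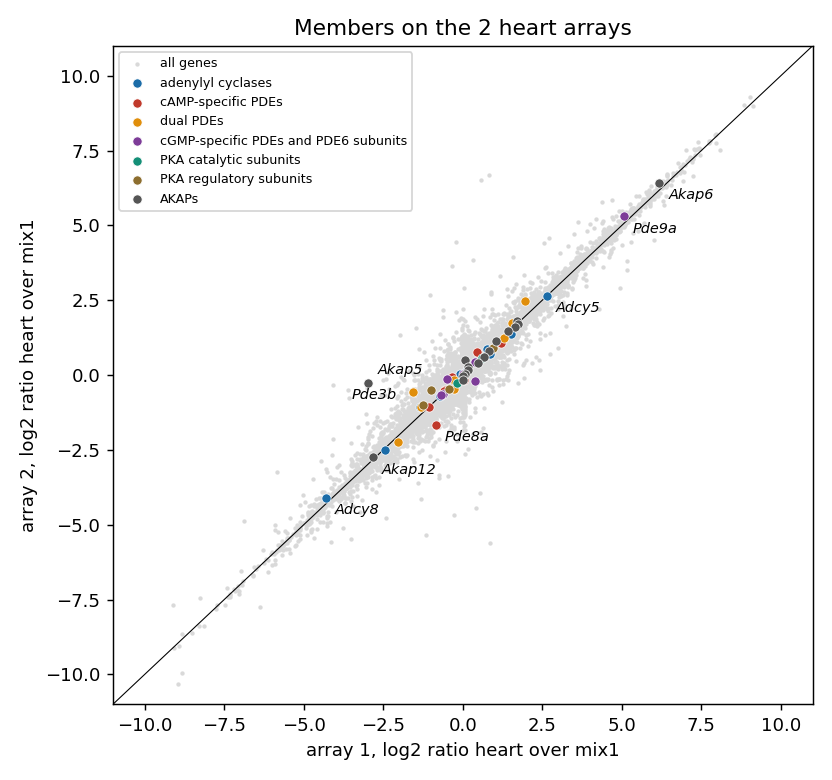
Log2 ratios of heart over mix1 on array 1 (horizontal) and array 2 (vertical) are shown for all genes (grey) and for the 56 members (coloured by class), with a line of equal values. The members lie along the line except Akap5, at -2.97 on array 1 and -0.25 on array 2.

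Some members lay where no difference could be read. Across the table, 11.5% of probes were within 0.1 of both array medians (0.01 and -0.14). Of the members, Akap4 and Pde8b (3.57%, against 7.82% of all genes) had ratios in that range. No spot intensities were used here, so whether such genes were above background in either channel is unknown.

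Promoter sequences are given for 4 members: the one that holds the full element to which the cyclic AMP response factor CREB is known to bind, the main catalytic subunit as an example of its half-site, and the anchoring genes with the highest and the lowest ratio past the test. RefSeq promoters of build GRCr8 were matched by symbol for 44 of the 56 members and read over the 250 bases before the annotated gene start. The full cyclic AMP response element, TGACGTCA, was searched on both strands, as was its half-site TGACG, which the full element contains. Each sequence runs from 5′ to 3′ on the strand of the gene, with full elements and half-sites in capitals.
Akap17a promoter, chr12:21428248-21428497, minus strand, the only member with the full element: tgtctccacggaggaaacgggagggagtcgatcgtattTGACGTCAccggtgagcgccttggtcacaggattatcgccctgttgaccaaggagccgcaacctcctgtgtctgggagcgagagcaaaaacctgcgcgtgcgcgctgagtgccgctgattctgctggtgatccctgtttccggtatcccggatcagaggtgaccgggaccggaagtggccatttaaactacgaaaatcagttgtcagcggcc
Prkaca promoter, chr19:41083190-41083439, minus strand, with half-sites on the opposite strand: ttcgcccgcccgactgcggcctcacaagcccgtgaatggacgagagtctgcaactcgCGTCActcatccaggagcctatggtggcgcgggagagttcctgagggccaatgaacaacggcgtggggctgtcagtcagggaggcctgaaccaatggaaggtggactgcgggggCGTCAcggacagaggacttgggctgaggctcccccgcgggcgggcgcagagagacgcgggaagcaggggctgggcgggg
Akap6 promoter, chr6:75919263-75919512, plus strand, the highest member, with neither motif: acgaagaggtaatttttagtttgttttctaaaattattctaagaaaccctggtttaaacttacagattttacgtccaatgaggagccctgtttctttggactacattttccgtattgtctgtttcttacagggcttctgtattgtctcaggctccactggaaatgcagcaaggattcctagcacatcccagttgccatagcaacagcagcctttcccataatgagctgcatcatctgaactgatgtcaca
Akap12 promoter, chr1:43135265-43135514, plus strand, the lowest anchoring member past the test, with neither motif: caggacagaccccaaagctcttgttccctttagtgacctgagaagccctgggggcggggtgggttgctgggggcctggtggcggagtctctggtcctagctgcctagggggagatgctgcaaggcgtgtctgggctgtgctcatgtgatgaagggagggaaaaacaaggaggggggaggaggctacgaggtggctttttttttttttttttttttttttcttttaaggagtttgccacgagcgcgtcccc

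The full element stood in 1 of 44 member promoters (2.27%) and in 1.7% of 27457 RefSeq promoters of the same length. The half-site stood in 8 (18.2%), against 19% of all promoters. These 8 were Akap17a, Prkaca, Pde4a, Adcy9, Pde10a, Pde8a, Akap11 and Pakap, of which 4 were higher in heart, 2 were lower and 2 did not pass. The GATA motif AGATAA stood in 3 (6.82%, against 10%), those of Pde1c, Adcy4 and Akap14. The MEF2 motif of muscle genes stood in 0 of 44 (3.07% of all promoters), and the CArG box that serum response factor binds likewise in 0 (1.5%). A match describes letters in this window and not a bound site.

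Beyond the members, the genes that feed into cyclic AMP or respond to it were read from lists of the pathway. The counts of every list below stand beside 31.4% higher and 41.5% lower among all genes, with a median of -0.090. Among receptors coupled to Gs, 9 of 29 were higher (31%) and 11 lower (37.9%) in heart, or 8 and 10 after centring. Their median was -0.092. These shares and this median lay near those of all genes, and are not a result about these receptors. The glucagon receptor gene Gcgr was at 4.49 and 4.62, and the adenosine receptor genes Adora2a (2.58 ± 0.050) and Adora2b (-3.90 ± 0.064) lay on opposite sides. Adrb1, the beta-1 adrenergic receptor of heart muscle, was at -0.09 and -0.08 and did not pass (adjusted p 0.135). Among receptors coupled to Gi, 7 of 22 were higher (31.8%) and 11 lower (50%), or 7 and 9 after centring. Chrm2, the muscarinic receptor of the heart, was at 1.58 and 1.70 (adjusted p 0.00207).

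Of 11 G protein subunits that act on cyclases, 8 were lower (72.7%, beside 41.5% of all genes) and 3 higher (27.3%, beside 31.4%). After centring 7 were lower and 3 higher, and the median as deposited was -0.51. Gnas, the alpha subunit of Gs, was at 0.30 and 0.39 (adjusted p 0.0183). The alpha subunit genes of Gi were all lower, Gnai1 at -2.54 ± 0.50, Gnai2 at -0.51 ± 0.018 and Gnai3 at -0.48 ± 0.053, while the related Gnao1 was higher (2.43 ± 0.30). Of the beta subunits, Gnb3 was higher at 4.83 and 4.73, and Gnb4 was lower at -2.59 on both arrays.

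Other proteins that bind cyclic AMP were higher or did not pass, 5 and 5 of 10. After centring 6 were higher and 1 lower, as Hcn2 passed as higher (0.46) and Cnga3 as lower (-0.54). The Popeye genes Bves (6.19 ± 0.11) and Popdc2 (6.13 ± 0.009), whose membrane proteins bind cyclic AMP in striated muscle, had ratios close to that of Akap6. The exchange factors known as Epac followed, with Rapgef3 at 4.52 ± 0.57 and Rapgef4 at 2.60 ± 0.41, and the pacemaker channel gene Hcn4 was at 1.71 ± 0.41. The 3 inhibitor peptides of protein kinase A differed in direction. Pkia, known from muscle, was at 5.20 and 5.43 (adjusted p 0.00127), Pkig was slightly higher (0.21 ± 0.027; 0.28 after centring, where it did not pass, adjusted p 0.19) and Pkib was lower (-1.34 ± 0.13). The ratio of Pkia thus lay above that of every subunit of the kinase that it inhibits.

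Anchoring proteins that carry other names were divided, 3 of 9 higher and 4 lower (3 and 3 after centring), with Pakap also counted among the members. Synm, the synemin of muscle intermediate filaments, was at 3.49 ± 0.039 and Sphkap at 1.96 ± 0.007, whereas Rab32 was at -3.01 ± 0.16 and Wasf1 at -2.57 ± 0.24. Of 12 genes listed as substrates of the kinase in heart muscle, 11 were higher, with a median of 4.74. Pln, Tnni3, Ryr2 and Mybpc3 among them are also heart muscle markers. Because the list was drawn up for heart muscle, its lean toward heart is no finding. The lower gene was Myl9 (-2.56 ± 0.006), the regulatory light chain of non-sarcomeric myosin, which is chiefly known as a target of other kinases.

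On the transcription side, 1 of 8 genes of the CREB family and its coactivators was higher and 2 were lower, and none reached 2-fold among those that passed. Creb1 was at -0.11 and 0.06 (adjusted p 0.737). Of 11 genes known as CREB targets, 5 were higher and 6 lower (4 and 6 after centring), with Crem counted in both lists. Ppargc1a, the coactivator of mitochondrial genes, was higher at 4.28 and 2.20 (adjusted p 0.0477), and Sik1 was at 2.23 ± 0.021, while Fos (-5.94 ± 0.066), Dusp1 (-3.67 ± 0.055) and Nr4a1 (-3.15 ± 0.043), all immediate early genes, were lower. The cyclic GMP arm held 4 of 10 higher genes and 2 lower ones. Gucy1a1 and Gucy1b1, subunits of soluble guanylyl cyclase, were at 3.50 ± 0.017 and 1.99 ± 0.058. Of the natriuretic peptide receptor genes in this list, Npr1 was higher (1.98 ± 0.027) and Npr2 lower (-0.74 ± 0.002). The kinase gene Prkg1 was at -0.55 ± 0.19. Of the 2 export pump genes, Abcc5 was higher (0.79 ± 0.023) and Abcc4 did not pass.

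Among genes whose names resemble those of the members but fall outside the rule, 2 of 5 were higher and 2 lower (3 and 1 after centring). Pde4dip, which encodes the anchoring protein myomegalin and no phosphodiesterase, was at 3.71 and 3.83 (adjusted p 0.00122). Pde12, a mitochondrial enzyme that acts on RNA and oligoadenylates, was at -1.46 ± 0.056.

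**Figure D4:**
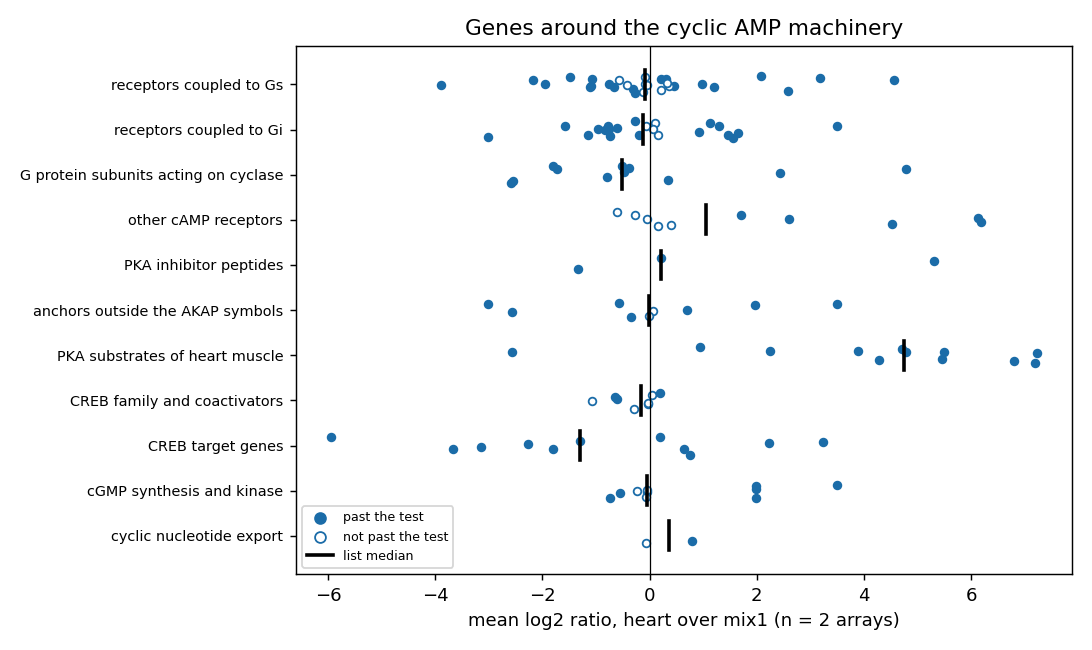
Mean log2 ratios of heart over mix1 (n = 2 arrays) of genes around the cyclic AMP machinery, 1 row per list, with filled points past limma's test and a black bar at the list median. The substrates, a list drawn up for heart muscle, lie furthest right as a list (median 4.74). The points of the other lists spread on both sides of 0 or, for the other cyclic AMP receptors, pass only on the right.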

How the data were processed

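The authors deposited 1 value per probe and array, here read as a log2 ratio of the channels. Agilent Feature Extraction was used, per the submitters' processing notes; version, background correction and dye normalization: not given in the sources used here. A gene symbol was available for 20417 of 40012 probes from the platform annotation. Symbols were updated through accessions matched to the GRCr8 gene table (16978 probes matched). Averaging log2 values over each gene's probes gave 15613 genes. Probe coordinates are not given. An intercept was fitted to the 2 ratios of each gene with limma 3.58.1 (R 4.3.3; lmFit, eBayes), two-sided, with Benjamini-Hochberg adjustment over all genes at 0.05. Mix1 counted as 1 control sample, so its own spread is left out, and 1 residual degree of freedom remained (prior 1.24). Precision is limited by the number of arrays. The code was tested on simulated data. Alternatives were centring each array on its median, other probe summaries, annotated symbols, natural logs, robust eBayes and single arrays. Members and gene lists were chosen with earlier results of these data known. Members at least 2-fold different and past the test were given in full, with at most 3 per class and direction, besides members whose arrays differed by 2-fold. The others were given by their values on both arrays, by means or by ranges.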

Additional observations from a re-analysis of the deposited data

How the results depend on the processing

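The counts of members higher and lower in heart stayed within 1.5 times of 23 and 16 under all 6 settings tried: 22 to 26 higher and 14 to 17 lower. Of 56 members, 45 kept their call under each of them, be it higher, lower or not past. Not every setting could change a call. Natural logs scale all ratios alike and leave each p-value as it was. Annotated symbols renamed 1 member, and the other probe summaries left the ratios of the 39 members with a single probe unchanged. The only called member that reversed was Prkar2b, at 0.53 when read by its more repeatable probe, that with the smaller gap between arrays. Centring ended 3 calls (Akap10, Pde11a, Prkar1b) and added 3 (Akap5, Pde3b, Prkar2a), in a fit whose prior degrees of freedom were infinite, so that each gene's own spread was ignored. The other probe summaries added calls for Adcy6, Akap9 and Prkacb, and Pde8a was lost under 2 settings. Counts at 2-fold or more, added after seeing the data, were 12 to 17 higher and 8 to 11 lower; natural logs gave the 17, with 10 lower. Read as natural logs, every ratio would be larger by the same factor, and the lowest value of the table would be a 65989-fold difference in place of 2191-fold, which is why base 2 was taken. Single arrays, also added, gave 13 higher members on either array and 9 to 11 lower. No paired analysis was possible because both samples belong to 1 group. Ratios without intensities do not show how far either channel stood above background.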
